A study of Drosophila melanogaster with 4 samples.

Results

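The bun locus on chromosome arm 2L held the highest-scoring RPD3 site that the deposited lists of adult Drosophila melanogaster heads share between both replicates. It is described here as all enriched clusters that overlap 2L from 12455000 to 12547000, a span of 92 kb. RPD3 was mapped by chromatin immunoprecipitation with sequencing (ChIP-seq), in which protein-bound DNA is pulled down with an antibody and sequenced. The span held 28 clusters in all, namely 5 of the 5550 clusters of replicate 1, 9 of the 5872 of replicate 2 and 14 of the 7386 of the authors' combined list. Per the file headers, coordinates refer to release 5 of the FlyBase genome, and they are 1-based. The span was set around bun on the premise that positions here are the same in release 6, which was not checked because no genome sequence of either release was used.

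The study has 4 samples from 1 condition: 2 ChIP samples with the RPD3 antibody Q3451 and 2 inputs, which are chromatin samples without immunoprecipitation. All are head nuclei of wild-type flies of the Oregon-R strain at the mixed adult stage, without any transgene or treatment named, and heads were collected by sieving from caged populations kept on a 22-day adult cycle. Each input is tied to 1 ChIP sample. The labels do not say whether the replicates came from separate fly populations, so the spread between them may be technical, and a head holds many cell types that these lists cannot separate. Read depth per library is unknown.

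RPD3 is the fly counterpart of mammalian HDAC1, an enzyme that removes acetyl groups from histone tails. It has no sequence preference of its own and is brought to DNA within corepressor complexes such as those built on Sin3 and CoREST. The gene bun (bunched, also known as shortsighted) encodes several proteins that share the TSC22 domain, a leucine zipper region through which these proteins pair. Its long product promotes growth in flies together with the adaptor protein Madm, and bun also acts in patterning of the egg chamber and in eye development. The release 6 gene table of RefSeq lists 10 transcripts and 10 proteins for bun (Dmel_CG42281).

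In that table bun overlaps other genes. A total of 5 genes overlap it, of which 2 are protein-coding, t-cup and CG43051. The others are the microRNA gene mir-967, a small nucleolar RNA gene and a long noncoding RNA gene. The nearest protein-coding neighbours are CG5418 on one side and nub, which encodes a POU-domain transcription factor of wing and nervous system development, on the other. The table is of another release than the cluster lists, so clusters were not placed relative to exons or transcription start sites. For the same reason no cluster was assigned to bun rather than to a gene that overlaps it.

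RPD3 occupancy of the span consisted of 3 stronger sites and a set of weak clusters between them. The strongest site lay in the interior, and the other stronger sites lay at the left and right ends of the span. Their midpoints lay 61.5 kb to the left and 25.4 kb to the right of the interior site. All 3 sites were called in both replicates. The end sites were stronger only than the weak clusters of the span. In each list, 1 span cluster, the interior site, was among the best 10% by score. Each cluster carries the authors' score, taken here to be the log2 ratio of ChIP to input signal because of how its values are spaced. The file headers do not name the scale. The lists may be scaled differently, so scores are compared only within a list.

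**Figure D1:**
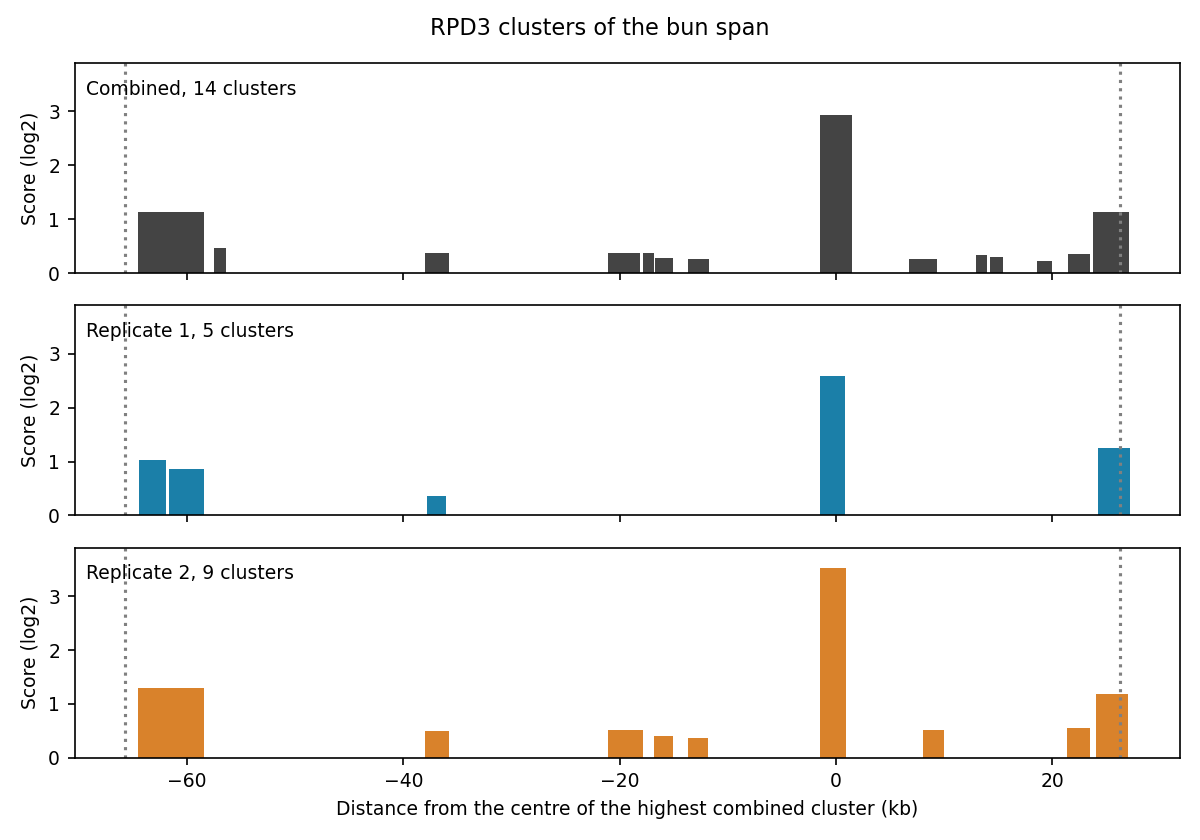
Enriched RPD3 clusters of the bun span in the combined list and in each replicate, drawn to scale as bars from start to end (kb from the centre of the highest combined cluster), with bar height as the authors' score (log2); dotted lines mark the ends of the span. The interior site and both end sites appear in all 3 lists, and most of the low bars appear in replicate 2 and the combined list but not in replicate 1.

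The interior site ran from 12519262 to 12522238 in the combined list (2977 bp), with a score of 2.93. Its score was 2.58 in replicate 1, where it ranked 2, and 3.52 in replicate 2, where it ranked 1. The span was chosen by this score and by the site's recurrence in both replicates, so these values and ranks are given as a description and support nothing. Over all combined clusters the site ranked 14.

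All 13 combined clusters that scored above it were narrow, between 1001 and 1133 bp, and none of them overlapped a cluster of either replicate. Of these 13, 3 lay on large arms, and the others lay on unplaced or heterochromatic scaffolds. The single higher-scoring cluster of replicate 1 lay on the unplaced scaffolds U from 4867712 to 4869160, with a score of 2.85, and overlapped no cluster of the other lists. Among clusters present in all 3 lists, the interior site ranked first in each.

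The distance to the runner-up differed between the lists. In replicate 2 the interior site stood 0.86 above the next cluster, which lay on 3R from 3633840 to 3637529 and scored 2.65. In replicate 1 it stood 0.22 above the next lower cluster, on U from 9094057 to 9096712 with a score of 2.36. Its lead in the combined list was 0.24 over the next lower cluster and 0.49 over the next one present in all lists.

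**Figure D2:**
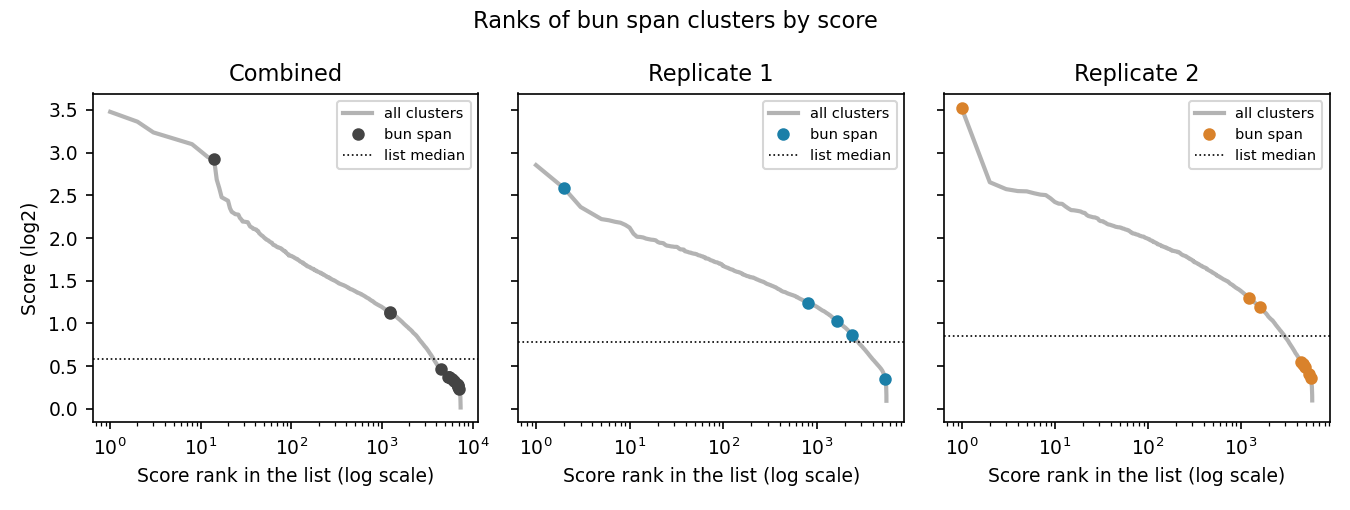
Authors' score (log2) against score rank within each list (log axis), with all clusters as a grey line, the clusters of the bun span as points and the list median as a dotted line. The interior site sits at rank 14, 2 and 1, the end sites fall between ranks 803 and 2394, and 11 of the 14 combined clusters lie below the median of 0.59.

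The extent of the interior site was nearly the same in both replicates. It ran from 12519303 to 12521587 in replicate 1 (2285 bp) and from 12519249 to 12521672 in replicate 2 (2424 bp), a mean width of 2355 ± 98.3 bp (SD, n = 2). The starts differed by 54 bp and the ends by 85 bp. Over the 702 clusters of 2L matched 1 to 1 between the replicates, the median difference was 207 bp at the start and 210.5 bp at the end.

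The replicate 1 cluster lay wholly within that of replicate 2, and the stretch common to both made up 94.3% of their union. Of the 702 matched pairs, 10.5% shared at least as much. The combined cluster began 13 bp inside the outermost replicate start but ended 566 bp past the replicate 2 end and 651 bp past the replicate 1 end. Over 649 combined clusters of 2L matched 1 to 1 with both replicates, the median right end lay 5 bp inside, and 4.78% ran at least as far past both replicates. The sources used here do not say how the authors combined the replicates.

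The interior site was narrower than most clusters in the best 10% of each list by score. The 10% of clusters with the highest scores had a median width of 3507 bp in replicate 1 and 3730 bp in replicate 2. Of these, 95.9% in replicate 1 and 97.8% in replicate 2 were at least as wide as the interior site. The share was 77.6% in the combined list, where the site was wider. Clusters next to it in score differed between the lists. The 13 combined clusters scoring above it were narrower than it. So was the next lower combined one present in all lists, on 3L from 14666132 to 14668556 (2425 bp). In the replicates the next lower clusters were wider than the interior site, at 2656 bp in replicate 1 and 3690 bp in replicate 2. The cluster scoring above it in replicate 1 was narrower (1449 bp).

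Its distance to other clusters differed between the lists. In replicate 1 the nearest clusters were 34.6 kb to the left and 23.4 kb to the right. In replicate 2 they were 10.3 kb and 7.1 kb away, because weak clusters on both sides were called only there. The median distance of a 2L cluster to its nearest neighbour was 2.59 kb in replicate 1 and 3.26 kb in replicate 2. Of the 2L clusters, 9.43% in replicate 1, 27.6% in replicate 2 and 27.2% in the combined list were at least as isolated as the interior site.

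The left end site covered 6067 bp in the combined list, from 12456232 to 12462298, with a score of 1.13. This made it the widest cluster of the span, and 7.46% of all combined clusters were at least as wide. Replicate 2 called it as 1 cluster from 12456243 to 12462285 (score 1.30, rank 1232). Replicate 1 called 2 clusters separated by 320 bp, from 12456276 to 12458779 (score 1.03, rank 1652) and from 12459100 to 12462293 (score 0.86, rank 2394). The outer ends of the site therefore differed by little between the replicates, which had 94.0% of their joint extent in common.

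The right end site ran from 12544498 to 12547848 in the combined list (3351 bp, score 1.13) and passed the end of the span by 848 bp. In replicate 1 it ran from 12545026 to 12547910, with a score of 1.25 and rank 803. In replicate 2 it ran from 12544768 to 12547778, with a score of 1.19 and rank 1597. The replicates shared 87.6% of their joint extent at this site.

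The interior site scored above both end sites in each replicate, a difference that follows from how the span was chosen. It exceeded the left site by 1.55 in replicate 1 and by 2.22 in replicate 2, a mean of 1.88 ± 0.47 (SD, n = 2), or 2.92-fold and 4.64-fold on a linear scale. It exceeded the right site by 1.34 and 2.33, a mean of 1.83 ± 0.70, or 2.53-fold and 5.01-fold. The end sites had no constant order. The right site scored 0.21 above the left one in replicate 1 and 0.11 below it in replicate 2, a mean difference of 0.05 ± 0.23, which is smaller than the spread between replicates.

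The remaining 11 combined clusters of the span were weak. Their scores lay between 0.23 and 0.46, all below the list median of 0.59, and their widths lay between 1031 and 2913 bp. Over the list 50.0% of clusters lie below the median, against 11 of the 14 in the span. The median score of the 14 was 0.36, against 0.57 for all 2L clusters. In replicate 1 the median of the 5 span clusters was 1.03 against 0.75 for 2L, and in replicate 2 that of the 9 span clusters was 0.52 against 0.82. The span median thus lay above that of the arm in replicate 1 and below it in replicate 2.

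One weak cluster was common to all lists. It ran from 12482724 to 12484948 in the combined list (score 0.38), from 12482936 to 12484736 in replicate 1 (score 0.35) and from 12482719 to 12484941 in replicate 2 (score 0.49). It ranked 5395 of 5550 in replicate 1 and 4897 of 5872 in replicate 2. Its edges differed by 217 bp at the start and 205 bp at the end, close to the medians of matched pairs on the arm.

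A block of weak clusters to the left of the interior site was called in replicate 2 and not in replicate 1. The combined list split it into clusters from 12499710 to 12502622 (score 0.38), 12502904 to 12503934 (score 0.38), 12503996 to 12505696 (score 0.28) and 12507056 to 12508992 (score 0.27). Replicate 2 had clusters from 12499703 to 12502895 (score 0.52), 12503921 to 12505698 (score 0.40) and 12507039 to 12508948 (score 0.36). The second of these met 2 combined clusters, and it met the one ending at 12503934 only at that cluster's right edge. The first ended just before the start of the second combined one without reaching it.

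To the right of the interior site, replicate 2 again had weak clusters without a counterpart in replicate 1. They ran from 12528772 to 12530734 (score 0.52) and from 12542106 to 12544277 (score 0.55). The combined list called them from 12527554 to 12530118 (score 0.26) and from 12542224 to 12544258 (score 0.35).

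A further 4 combined clusters met no cluster of either replicate. They ran from 12463256 to 12464308 (score 0.46), 12533688 to 12534772 (score 0.33), 12535004 to 12536170 (score 0.29) and 12539330 to 12540758 (score 0.23). The first lay 957 bp to the right of the left end site, and the others lay between the interior and the right end site.

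Recurrence in the span was therefore uneven between the lists. The interior site was chosen for recurring, so its overlap was fixed in advance and is counted in the shares that follow. All 5 replicate 1 clusters overlapped replicate 2, where 83.9% of the whole list did. Of these 5, 2 are parts of the left end site and overlapped the same replicate 2 cluster. Of the 9 replicate 2 clusters, 4 overlapped replicate 1, or 44.4%, where 82.2% of the whole list did. Clusters of 1 list are not replicates, so this share is a description only. The 5 without a counterpart scored between 0.36 and 0.55. Besides them, 1 span cluster of replicate 2 scored in that range, from 12482719 to 12484941 (score 0.49), and it overlapped replicate 1. Of all replicate 2 clusters scoring no higher than 0.55, 54.5% overlapped replicate 1. The 5 were picked for lacking an overlap and the limit of 0.55 was taken from them, so that share cannot be set against the 5 alone.

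Of the 14 combined clusters, 4 overlapped both replicates, the chosen interior site among them, against 61.0% of the whole combined list. A further 6 overlapped replicate 2 alone (background 13.6%), none overlapped replicate 1 alone (background 9.55%) and 4 overlapped neither (background 15.9%). Recurrence is lower at low scores in the whole list. Among combined clusters scoring no higher than 0.46, a limit taken after the values were seen, 17.4% overlapped both replicates, 28.9% replicate 2 alone, 21.1% replicate 1 alone and 32.6% neither. Of the 11 span clusters in that range, the counts were 1, 6, 0 and 4. The 6 include the cluster from 12502904 to 12503934, which met replicate 2 only at its right edge. The replicate 2 cluster it met also overlapped the next combined cluster and so counts for 2 of the 6. The counts meeting both replicates or neither lay near the background at these scores. Those meeting replicate 2 alone exceeded that background and those meeting replicate 1 alone were absent. Whether score accounts for this was not tested.

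No stretch of the span free of clusters was longer than 34.6 kb in replicate 1 and 20.4 kb in replicate 2. In both replicates there was no cluster between the left end site and the weak cluster at 12482724, a gap of 20.6 kb in replicate 1 and 20.4 kb in replicate 2. This was the longest gap of the span in replicate 2, and in the combined list the longest gap was 18.4 kb at the same place, after the cluster ending at 12464308. The longest gap of replicate 1, 34.6 kb, lay between that weak cluster and the interior site.

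Outside the span the sides differed. To the left, the nearest combined cluster ended 17.4 kb before the span, from 12432544 to 12437638, with a score of 1.32. Replicate 2 had its nearest cluster at nearly the same place, from 12432520 to 12437624 (score 1.47). In replicate 1 the nearest was another one just to the right of it, from 12437676 to 12439514 (score 0.52, rank 4400). To the right, the nearest combined cluster began 144.6 kb after the end of the span, from 12691596 to 12696092, with a score of 0.94. Replicate 1 had its next cluster at nearly the same place, from 12691545 to 12695874 (score 0.90). Replicate 2 had 1 weak cluster nearer, 70.4 kb after the span, from 12617432 to 12618950 (score 0.32).

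The span was then set beside the 248 other windows of 2L of the same length, laid end to end from it in both directions. It held 7 ± 2.83 clusters per replicate (SD, n = 2), where the arm averaged 4.01 ± 0.215 per such length. In replicate 1 its 5 clusters compared with a median of 3 over the other windows, and 40.3% of them held at least as many. In replicate 2 its 9 clusters compared with a median of 4, and 10.9% held at least as many. The number of clusters was thus well within the range of the arm, which reached 16 and 14.

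By covered length the span was also within the range of other windows. Clusters covered 12.8% of it in replicate 1 and 26.0% in replicate 2, a mean of 19.4 ± 9.36% (SD, n = 2), where they covered 13.5 ± 0.156% of the arm. Of the other windows, 42.7% in replicate 1 and 14.9% in replicate 2 were covered to at least the same extent. The excess over the arm was smaller than the spread between the replicates for covered length and about as large as it for cluster number.

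The span stood higher in cluster number in the combined list, with 14 clusters. Another 2 windows held more, 15 each, and 2 held as many. The windows with 15 adjoin each other, from 10246976 to 10338976 and from 10338977 to 10430977, and clusters covered 62.9% and 62.3% of them. The span was covered to 33.4%, and 34 windows were covered more. The windows that also held 14 ran from 13375010 to 13467010 and from 18987071 to 19079071, and clusters covered 33.1% and 49.0% of them.

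**Figure D3:**
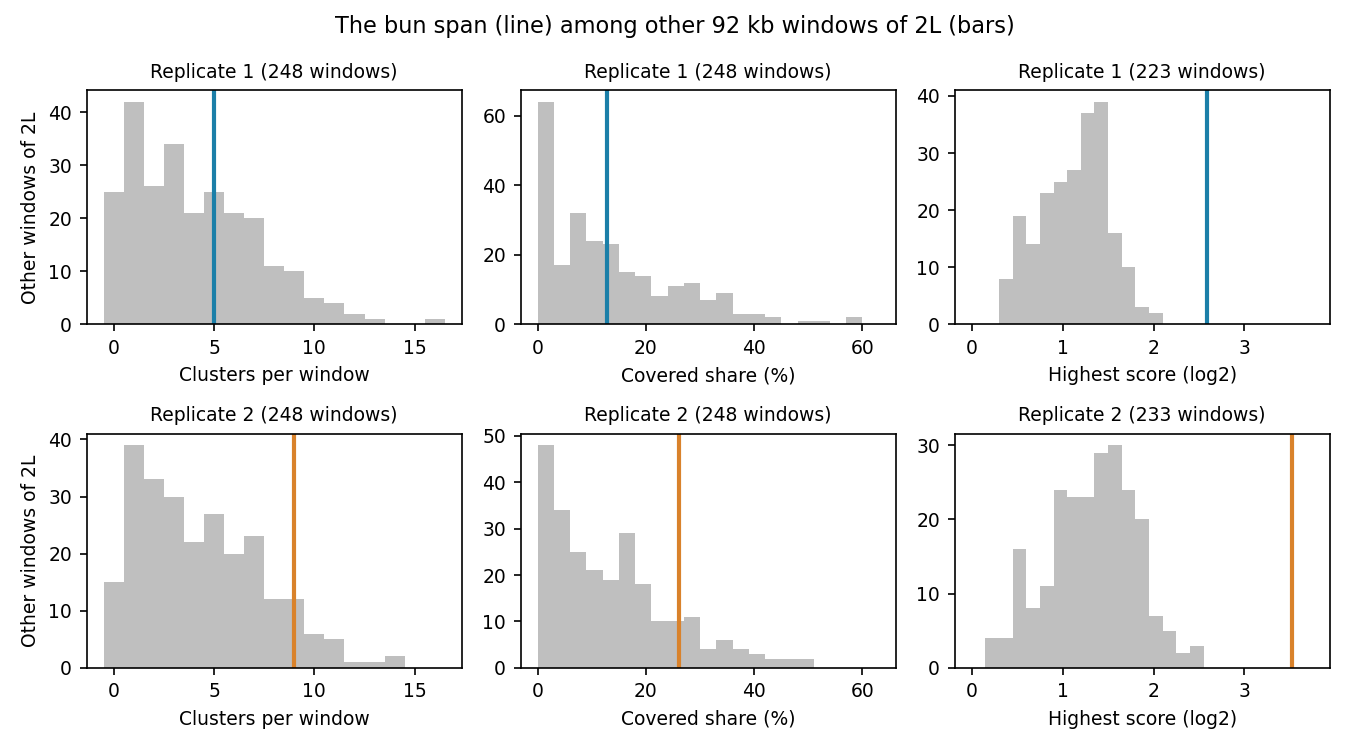
Number of clusters, covered share (%) and highest cluster score (log2) of the other 92 kb windows of 2L (grey bars, number of windows) and of the bun span (coloured line), by replicate; the score panels leave out windows without a cluster. The span lies inside the range of the other windows for number and covered share and beyond it for the highest score.

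The highest score set the span apart from all other windows, as the rule that chose it requires. In replicate 1 the highest score of any other window was 2.01 and the median of the windows' highest scores was 1.15. In replicate 2 these values were 2.52 and 1.37. For combined clusters they were 2.19 and 1.16.

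The span also had a wide step from its first to its second cluster by score. The step was 1.34 in replicate 1, where the other 181 windows with at least 2 clusters reached 1.07, and 2.22 in replicate 2, where the other 194 reached 1.85. In the combined list it was 1.80, and 1 of 205 other windows had a larger one, 1.85. This measure contains the score that chose the span and is a description only.

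**Figure D4:**
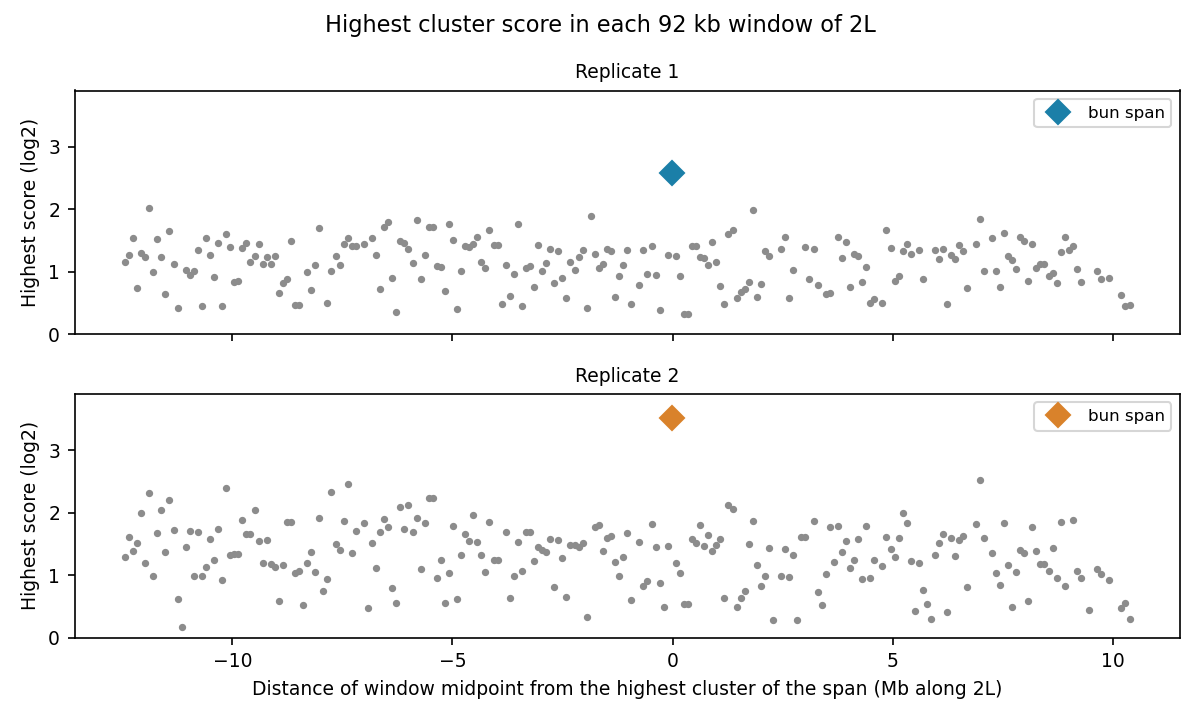
Highest cluster score (log2) in each 92 kb window of 2L against the distance of the window midpoint from the interior site (Mb along the arm), by replicate; grey points are other windows and the diamond is the bun span. No other window passes 2.01 in replicate 1 or 2.52 in replicate 2, while the span lies at 2.58 and 3.52.

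The replicates agreed less over the span than over most of the arm. Of the bases covered in either replicate within the span, 49.1% were covered in both, and the median over 237 other windows was 64.4%. Of those windows, 76.8% had at least the share of the span. Replicate 2 had 4 clusters more than replicate 1 here, a difference that no other window of the arm exceeded and 2 equalled.

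The windows on either side of the span differed from it and from each other. The window to the left held 4 clusters in replicate 1 and 6 in replicate 2, with highest scores of 1.26 and 1.47. The window to the right held 1 and 2 clusters, and in each replicate the highest was the end of the site that crosses the border of the span. Clusters covered 0.989% and 2.5% of that window.

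The windows most like the span by percentile of cluster number, covered share and highest score ran from 2334890 to 2426890, from 6658937 to 6750937 and from 7026941 to 7118941. The percentiles were of means over both replicates, for the scores too, although the lists may be scaled differently. These windows held 7, 6.5 and 7.5 clusters on average over the replicates, against 7 in the span. Clusters covered 25.8%, 19.6% and 24.3% of them, against 19.4%. Their highest scores were 1.60, 1.82 and 1.72 in replicate 1 and 2.40, 1.91 and 2.24 in replicate 2, all below the interior site of the span.

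Because the span was chosen by the score and recurrence of the interior site, that site's standing here is a description only. Among the 5 highest-scoring combined clusters of 2L found in both replicates, the interior site was the one placed highest in both lists. Of the others, the site from 19507046 to 19510010 ranked 42 in replicate 1 and 6 in replicate 2. The site from 601304 to 603914 ranked 13 and 17. The site from 5106620 to 5110076 (combined score 2.08) ranked 213 and 9, and that from 2419358 to 2422078 (combined score 2.03) ranked 144 and 11.

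These 5 sites were alike in width, between 2611 and 3457 bp in the combined list. Their distances to other clusters ranged more widely. The nearest combined cluster was 5.32 kb away for the interior site of bun. It was 5.14, 5.28, 0.953 and 0.269 kb away for the others, in the order given.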

How the data were processed

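Per the submitters' processing notes reads were aligned with Bowtie 0.12.7. The sources used here do not name the caller of clusters, its threshold or how ChIP and input were scaled. The authors deposited 3 lists of enriched clusters, each cluster with a score that was read as log2: raised as powers of 2, the 5 highest distinct combined scores were 9, 10, 11, 12 and 13 times 1 step (largest deviation 6.9e-14). Inputs and reads were not analysed here, and 1 depleted region was left out.

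An overlap of 1 bp or more made clusters shared. Ranks count the clusters scoring higher. Windows of 2L had the length of the span. Members, lists and comparisons were chosen with earlier results of these data known, and no test was run, since the span was chosen by score and clusters are not replicates. Functions were tested on simulated data. All clusters of the span are named; outside it, the windows beside it, the 3 windows most like it and the 5 highest combined 2L clusters found in both replicates. Clusters scoring next to the interior site, those just outside the span and the windows fullest in clusters were added after their values were seen. bun and its neighbours were named from the RefSeq table by symbol and order. Alternatives are given at the end. Python 3.11.15, numpy 2.4.6, pandas 2.3.3, scipy 1.17.1 and matplotlib 3.10.9 were used.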

Additional observations from a re-analysis of the deposited data

How the results depend on the processing

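The cluster number of 7 per replicate was 3.5 with the lower-scoring 50% of each list left out and 14 in the combined list, whose covered share was 33.4% in place of 19.4%. With the lower-scoring 50% left out, the covered share was 11.2 ± 0.57% in place of 19.4 ± 9.36% (SD, n = 2). The recurring share was then 100% in both replicates in place of a mean of 72.2%. That 100% rests on a mean of 3.5 clusters per replicate, among them the interior site, which was chosen for recurring. Each replicate alone gave 5 to 9 clusters, a covered share of 12.8% to 26.0%, a recurring share of 44.4% to 100%, a rank of the interior site of 1 to 2 and a width of 2285 to 2424 bp. The share of windows with at least as many clusters was 20.2% for the mean of the replicates, 40.3% without replicate 2 and 10.9% without replicate 1. By covered share it was 26.2%, 42.7% and 14.9%. No other window reached the highest score of the span under any of the 9 alternatives run for it, which included other window starts, sliding windows, windows shortened to 50% or doubled and each list alone. This follows from the choice of the span by that score and says nothing of stability. Joining clusters under 500 bp apart, midpoints in place of overlap, a stricter overlap and ranks over the large arms moved the values by no more than the spread between replicates. The causes of these shifts were not tested. No paired analysis was possible because inputs have no lists of their own and the ChIP samples form 1 group. What depth limits cannot be stated without read counts.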
